A study of Homo sapiens with 8 samples.

Results

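RNA-seq was used to compare gene expression with and without overexpressed MYC in U2OS cells that carry Zab. U2OS is an established human osteosarcoma cell line. The comparison sets the 2 libraries with the genotype Zab + MYC O/E (Zab+MYC, overexpressed MYC on top of Zab) against the 2 libraries with the genotype Zab alone, so it uses 4 of the 8 libraries of the series. Both groups carry Zab and differ by label only in MYC. The other 4 libraries, 2 of cells with neither factor (WT) and 2 with overexpressed MYC alone (MYC), served to ask whether the change with overexpressed MYC differed with Zab. Zab is written Zαβ in the design text, a name generally used for the Zα and Zβ domains of ADAR1. The construct, its promoter, the way MYC and Zab were introduced and the number of clones were not given in the sources used here.

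MYC is a transcription factor that binds DNA as a pair with MAX, most strongly at the E-box, and is known for raising genes of ribosome production, nucleotide synthesis and mitochondria while many genes of matrix and cell adhesion go down. ADAR1 is an RNA-editing enzyme that changes adenosines in double-stranded RNA and, through its Zα domain, binds left-handed Z-RNA and Z-DNA, which keeps the cell's own RNA from being read as viral. Interferon-stimulated genes are switched on when sensors of such RNA signal to interferon, and their promoters often hold an interferon-stimulated response element (ISRE).

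Exon tags, the reads counted in exons of coding genes, ran from 686992 to 1037216 in the 4 libraries. The share of all tags that fell in exons was 60.6% and 60.9% in the Zab libraries and 69.2% and 69.1% in the Zab+MYC libraries, and the sum of the deposited values was 1.14 times higher in Zab+MYC (exact permutation test of 2 against 2, two-sided p = 0.333 for each, the smallest such a design allows). The 2 libraries of a group differed by no more than sampling noise: a chi-square test of their tags gave a ratio to its degrees of freedom of 1.005 in Zab (p = 0.373) and 0.997 in Zab+MYC (p = 0.586). Nothing in the labels says that they came from separate cultures, so all p-values below measure a spread between libraries that can be purely technical. Of 22 osteoblast and mesenchymal markers, 13 were abundant enough to test, with a summed level of 7811 to 8100 CPM (tags of a gene per 1000000 exon tags, after scaling) in Zab and 7429 to 7602 in Zab+MYC, most of it VIM. COL1A1 and THY1 were abundant too. Among genes that define bone-forming cells, RUNX2 had 11 tags in Zab and 13 in Zab+MYC and SPP1 9 and 12, while SP7 and BGLAP had 0 and 2, and IBSP had none. None of 14 blood and 8 endothelial markers could be tested, and their summed levels stayed at or under 14.7 CPM in all 4 libraries, with CD3E and CDH5 at 0 tags. Among 16 epithelial markers 5 were tested (2002 to 2110 CPM in Zab, 2472 to 2512 in Zab+MYC, mostly KRT8 and KRT18, with CDH1 at 0 and 1 tag), and among 11 neural markers 3 (358.6 to 371.6 and 307.6 to 359.6 CPM).

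Promoter windows of 1 gene from each of the groups that moved most are shown to give the motifs looked for. These are the E-box, CACGTG, and an ISRE-like motif, GAAA followed by any 2 bases and GAAA again. Both strands were searched in the 250 bases before the start that the RefSeq entry of each gene gives (GRCh38.p14). DCTPP1, which clears modified nucleotides from the pool used for DNA synthesis, was the MYC core target with the E-box whose level was raised most, and IFI6, an interferon-induced membrane protein, was the interferon-stimulated gene with the ISRE-like motif that was lowered most. The window of DCTPP1 is chr16:30429801-30430050 on the minus strand and that of IFI6 is chr1:27672193-27672442, also on the minus strand. Capitals mark the motif matches.
DCTPP1: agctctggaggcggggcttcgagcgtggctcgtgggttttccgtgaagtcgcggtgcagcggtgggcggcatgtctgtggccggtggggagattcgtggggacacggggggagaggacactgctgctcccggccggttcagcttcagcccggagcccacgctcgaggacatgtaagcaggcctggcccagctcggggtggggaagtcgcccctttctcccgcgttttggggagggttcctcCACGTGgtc
IFI6: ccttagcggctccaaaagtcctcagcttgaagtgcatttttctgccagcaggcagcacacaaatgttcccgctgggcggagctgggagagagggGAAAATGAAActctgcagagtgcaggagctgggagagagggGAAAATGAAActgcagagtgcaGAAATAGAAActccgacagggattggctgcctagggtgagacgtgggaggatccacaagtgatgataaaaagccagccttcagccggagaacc
The E-box of DCTPP1 begins 9 bases before the start given by its RefSeq entry. The 3 matches in IFI6 begin 156, 115 and 93 bases before the start given for IFI6. The DCTPP1 window also holds a reading frame that opens with ATG, so it can lie inside the gene, downstream of another start. Its E-box is therefore not shown to lie upstream of the gene. Promoter entries were found for 7889 of the 9673 genes tested, and 9.47% of these held CACGTG and 2.21% the ISRE-like motif. CACGTG was present in 11.1% of the promoters of genes called higher (125 of 1126) and in 8.26% of those called lower (80 of 969). Of the interferon-stimulated genes, 37 of 43 had an entry, and 18 of these (48.6%) held the ISRE-like motif, beside 6.23% of promoters of all genes that fell at least 2-fold (22 of 353, some of them the same genes). For the MYC core targets only 44 of 58 had an entry, so that no share is read from them. A match is a string of letters in this window and does not show binding. The lack of a match does not show a lack of binding.

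MYC itself stood at 229.5 and 194 CPM in the Zab libraries and at 707 and 705 CPM in the Zab+MYC libraries. The groups do not overlap, and the rise was 3.32-fold (log2 1.73 ± 0.09 SE, limma adjusted p = 9e-27). Without Zab, MYC went from 72.6 and 94.8 CPM in WT to 1237 and 1290 CPM, so the step in Zab cells began from a higher level and ended lower, at 55.9% of the level in MYC cells (difference of the 2 log2 changes -2.16, limma adjusted p = 8.3e-24). Introduced and endogenous MYC transcripts are not told apart in these values. ADAR, whose exon counts include any Zab transcript made of ADAR sequence, stood at 6003 and 6198 CPM in Zab and 1068 and 1019 CPM in Zab+MYC, beside 230.4 to 269.6 CPM in the 4 libraries without Zab. It fell 5.84-fold (log2 -2.55 ± 0.06 SE, limma adjusted p = 7.6e-49), from 0.620% to 0.104% of all exon tags. A higher MYC and a lower ADAR signal therefore go together in these 4 libraries, and their parts in every result below cannot be told apart.

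**Figure D1:**
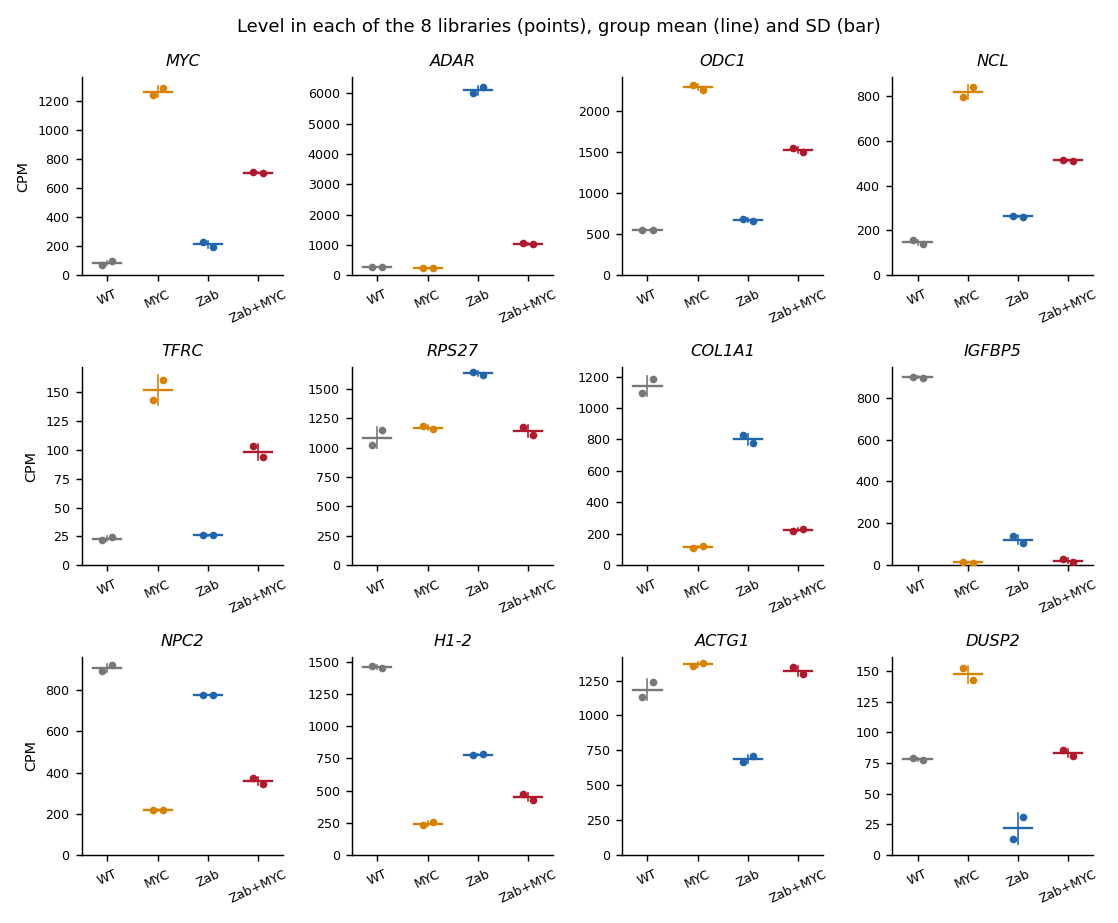
Level in CPM (vertical axes, linear from 0) of 12 genes in the 8 libraries, 2 points a group, with the group mean as a line and the SD as a bar. MYC rises and ADAR falls between Zab and Zab+MYC, and for ODC1, NCL, TFRC, COL1A1, NPC2 and H1-2 the Zab+MYC points lie between those of Zab and MYC.

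Of 9673 genes tested, 2592 (26.8%) were called, that is had a limma adjusted p (Benjamini-Hochberg) under 0.05. Higher in Zab+MYC were 1385 genes (14.3%) and lower 1207 (12.5%). At least 2-fold higher and called were 244 genes (2.52%), and at least 2-fold lower and called 452 (4.67%), and at 4-fold the numbers were 14 and 44. The median of all tested genes was -0.006 on the log2 scale. On the deposited scale that median moved up by 0.147, and the split of the calls became 2159 higher and 783 lower, so 73.4% of the calls were then higher, against 53.4% with TMM scaling. The larger changes turned as well: at least 2-fold and called were 410 genes higher and 312 lower on the deposited scale, so which side holds more of them depends on the scaling. Changes are given relative to TMM scaling from here on, and fold changes were taken from log2(CPM + 2), where added CPM make those of low genes too small. The edgeR test on the recovered tags, rounded to whole numbers, called 1302 genes higher and 1212 lower, and DESeq2 called 511 and 414.

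**Figure D2:**
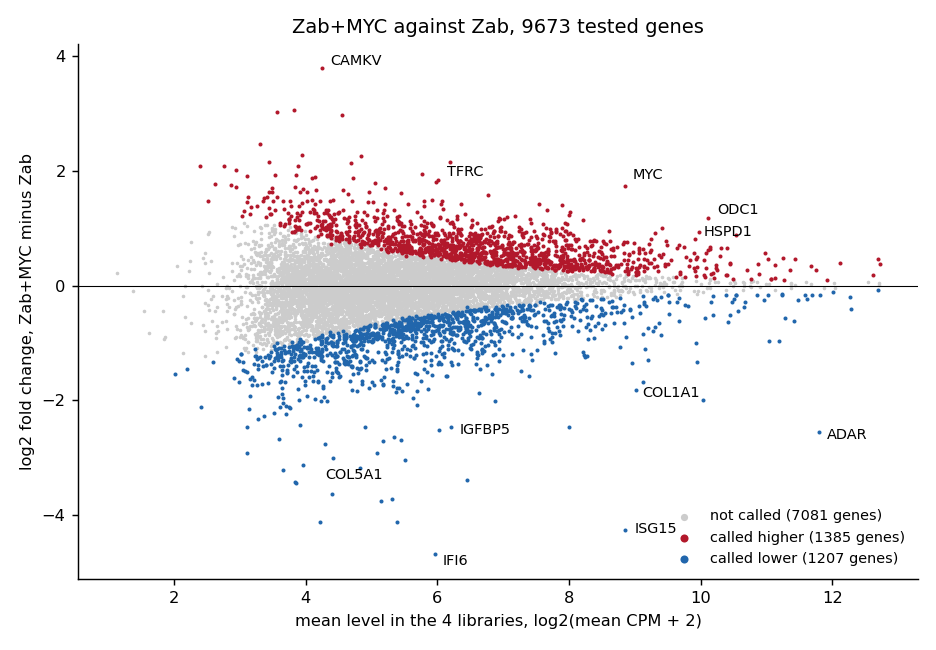
Mean level over the 4 libraries (horizontal axis, log2 of mean CPM + 2) against the log2 fold change between Zab+MYC and Zab (vertical axis) for 9673 genes, with the 1385 genes called higher in red, the 1207 called lower in blue and the rest in grey. ISG15 and ADAR stand apart below at high levels, and CAMKV stands highest.

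Genes that MYC is known to bind and raise were raised in Zab cells too. Of 58 tested MYC core targets (genes often given as direct targets of MYC) 41 (70.7%) were called higher and 0 lower, beside 14.3% and 12.5% of all tested genes, and their median log2 change was 0.58. TFRC, the transferrin receptor that brings iron into the cell, stood at 25.8 and 25.7 CPM in Zab and 103 and 93.6 in Zab+MYC, a 3.61-fold rise (log2 1.85 ± 0.20 SE, limma adjusted p = 4.1e-12). ODC1, which makes putrescine in the rate-limiting step of polyamine synthesis, went from 686 and 658 to 1554 and 1505 CPM (log2 1.18 ± 0.05, limma adjusted p = 1.6e-31). NCL, nucleolin, went from 265 and 260.1 to 514 and 512 CPM (log2 0.96 ± 0.08, limma adjusted p = 1.2e-15). The 4 libraries keep these genes apart without overlap, as they do for 60.8% of all tested genes. Genes named from the lists were chosen for this. TFB2M, a mitochondrial transcription factor, rose by 1.47 on the log2 scale and DCTPP1 by 1.18. DNA-binding partners of MYC moved in part: of 22 tested genes of the MYC network 6 were higher and 2 lower. MAX, the partner of MYC, rose from 68.9 and 66.7 to 122 and 103 CPM (log2 0.71, limma adjusted p = 0.00042), and MXD4, a repressor that competes with MYC for MAX, fell from 156 and 174 to 82.7 and 69.5 CPM (log2 -1.10, limma adjusted p = 6.8e-09). DESeq2 called 36 of the 58 core targets, and 38 to 42 were called when any 1 library was left out.

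Ribosome assembly was raised across most of its members, while ribosomal proteins were called in both directions. Among 61 genes of the small-subunit processome and its small nucleolar ribonucleoproteins, 41 (67.2%) rose and 0 fell, with a median log2 change of 0.58. Among 62 large-subunit assembly factors 40 (64.5%) rose and 0 fell, with a median of 0.56. RRP9, a protein of the U3 small nucleolar ribonucleoprotein, rose from 55.2 and 49.6 to 168 and 153 CPM (log2 1.58 ± 0.16, limma adjusted p = 3.1e-13). TCOF1, treacle, and NOLC1, which both serve ribosomal RNA synthesis in the nucleolus, rose by 1.08 and 1.01 on the log2 scale. LYAR, a nucleolar regulator, rose from 41.6 and 44.1 to 119.7 and 115.5 CPM (log2 1.42 ± 0.19, limma adjusted p = 4.3e-09), and RRP1, RRP1B and NOL9 by 1.47, 1.03 and 1.15. RNA polymerases I and III, which make ribosomal and transfer RNA, had 12 of 35 genes higher and 2 lower, with POLR3G, a subunit of RNA polymerase III, at 11.5 and 7.34 CPM in Zab and 31.6 and 36.2 in Zab+MYC (log2 1.67, limma adjusted p = 3.6e-05). DESeq2 called 19 of the small-subunit and 23 of the large-subunit genes higher, and none lower in either list.

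Of 78 cytosolic ribosomal proteins 13 (16.7%) were higher and 21 (26.9%) lower, no change reached 2-fold, and the median was -0.01. Of all tested genes 14.3% were higher and 12.5% lower, so the share higher was near that of all genes. RPS27 fell from 1646 and 1616 to 1179 and 1104 CPM (log2 -0.51 ± 0.05, limma adjusted p = 2.3e-13), RPL28 from 1815 and 1663 to 1279 and 1282 CPM (log2 -0.44) and RPS20 by 0.38 on the log2 scale. RPL5, which with RPL11 binds MDM2 outside the ribosome, rose from 2383 and 2340 to 2871 and 2843 CPM (log2 0.27, limma adjusted p = 1.8e-09), and RPS15 by 0.31. These changes are small next to those of the assembly factors. On the deposited scale the median turned positive, at 0.15, with 43 higher and 7 lower, and relative to all genes it was 0.01. The number called higher was 5 without Zab+MYC replicate 2 and 8 without Zab replicate 2. Ribosomal proteins have many near-identical copies in the genome, and how reads shared with such copies were counted was not given in the sources used here, nor was the use of strand.

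Translation and mitochondrial growth genes rose in part. Of 48 translation factors 25 were higher and 2 lower (median log2 0.33), or 0 lower without Zab replicate 2, with DESeq2 and on the deposited scale, among them EIF1AX, which helps to find the start codon (23.7 and 53.9 CPM in Zab, 89.5 and 97.1 in Zab+MYC, log2 1.33, limma adjusted p = 2.7e-07), EIF3J and the termination factor GSPT1. Of 37 aminoacyl-tRNA synthetases 5 were higher and 1 lower, a share near that of all genes, and 3 were higher without Zab+MYC replicate 1. Among 82 mitochondrial ribosomal proteins 35 (42.7%) rose and 0 fell (median 0.37), with MRPS2 going from 126 and 103 to 274 and 302 CPM (log2 1.32 ± 0.11, limma adjusted p = 1.2e-15). Mitochondrial import had 23 of 35 genes higher and 0 lower (median 0.49), led by TOMM40, the channel of the outer membrane, which rose from 173 and 175 to 307 and 346 CPM. HSPD1, the mitochondrial chaperonin, rose from 699 and 693 to 1248 and 1194 CPM (log2 0.81, limma adjusted p = 1.9e-20). Nuclear-encoded respiratory chain genes had 28 of 76 higher and 4 lower (median 0.23), or 2 lower without Zab+MYC replicate 2, and CYCS, cytochrome c, rose by 1.20 on the log2 scale. The mitochondrial ribosomal count was 22 without either Zab+MYC library. The import count was 9 without Zab+MYC replicate 1 and 11 without Zab replicate 2.

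Protein folding, turnover and transport through the nuclear pore followed the same direction. Chaperones including the CCT complex had 26 of 46 members higher and 2 lower (median 0.45). FKBP4, a co-chaperone of HSP90, rose from 449.7 and 448.6 to 904 and 910.1 CPM (log2 1.01 ± 0.07, limma adjusted p = 1.4e-21), and DNAJC2, a chaperone at the ribosome, by 1.23. The 2 that fell are small heat shock proteins, CRYAB (123 and 148 to 75.4 and 73.7 CPM, log2 -0.84, limma adjusted p = 5.7e-06) and HSPB1 (2538 and 2564 to 2304 and 2274 CPM, log2 -0.16), and on the deposited scale HSPB1 was at 0.001 with an adjusted p of 0.98. The proteasome had 17 of 39 genes higher and 0 lower (median 0.27), with 10 higher without Zab replicate 1, and ADRM1, its ubiquitin receptor, rose from 1097 and 1010 to 1692 and 1620 CPM. Nuclear pore and transport genes had 26 of 55 higher and 1 lower (median 0.41), or 17 higher without Zab+MYC replicate 1, with SEH1L at log2 1.17. Splicing factors had 23 of 62 higher and 0 lower, with SNRPB, a core protein of the spliceosome's small nuclear RNAs, going from 475 and 403 to 761 and 785 CPM.

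Metabolic genes were raised for nucleotides, lipids and part of glycolysis. Of 41 genes of nucleotide and folate metabolism 14 rose and 0 fell, with PPAT, which begins purine synthesis, at log2 1.04 and GMPS at 1.02. Polyamine synthesis had 2 of 15 higher (13.3%), a share near the 14.3% of all genes. These are ODC1 and the spermidine synthase SRM (1606 and 1647 to 2107 and 2109 CPM, log2 0.37, limma adjusted p = 7.4e-11). Cholesterol and fatty acid synthesis had 12 of 32 genes higher and 0 lower (median 0.46). SCD, which puts the double bond into fatty acids, rose from 163 and 144 to 332 and 329 CPM (log2 1.10 ± 0.10, limma adjusted p = 5.1e-15), and FASN, fatty acid synthase, from 468 and 408 to 829.7 and 828 CPM (log2 0.92, limma adjusted p = 3.5e-18). That count was 6 without Zab replicate 2, 7 without Zab+MYC replicate 1 and 3 with DESeq2. Glycolysis had 15 of 31 genes higher and 5 lower, or 2 lower without Zab+MYC replicate 2 and 3 without Zab replicate 1. The lactate carrier SLC16A1 rose by 1.15 on the log2 scale (limma adjusted p = 5.3e-05), and the muscle enolase ENO3 fell from 76.0 and 90.0 to 27.3 and 38.3 CPM (log2 -1.30, limma adjusted p = 1e-06). Amino acid transporters had 5 of 18 higher, with SLC7A5, which carries large neutral amino acids, going from 192 and 169.5 to 292 and 284 CPM, and 3 higher without Zab+MYC replicate 2. Of 36 genes of the integrated stress response 2 (5.56%) rose, ATF5 and TRIB3, and 4 (11.1%) fell, both under the shares of all genes (14.3% and 12.5%). The genes that fell include NUPR1 (69.6 and 64.3 to 16.1 and 18.4 CPM, log2 -1.84, limma adjusted p = 2.5e-07) and CHAC1, which degrades glutathione (141 and 158.5 to 93.4 and 78.0 CPM).

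Cell cycle genes rose in smaller numbers. Of 47 genes of G1/S and DNA replication 15 (31.9%) were higher and 0 lower (median 0.21). CCNE1, cyclin E, rose from 33.0 and 37.9 to 77.9 and 70.9 CPM (log2 1.03, limma adjusted p = 7.1e-06), CCND1, cyclin D1, from 189 and 215 to 366 and 352 CPM, and MCM2, a subunit of the replicative helicase, from 196 and 196 to 349 and 298 CPM. Of 56 G2/M and mitosis genes 19 (33.9%) were higher and 2 lower (median 0.18), with the checkpoint kinase BUB1B going from 30.1 and 33.1 to 65.2 and 60.3 CPM and the mitotic kinase AURKA from 53.1 and 69.8 to 130.4 and 95.7 CPM. DESeq2 called 6 and 10 of these 2 lists higher. CDKN1A, the inhibitor p21, fell from 513 and 502 to 381 and 356.5 CPM (log2 -0.46, limma adjusted p = 3.6e-05). Targets of p53 had 1 of 34 higher and 9 lower (median -0.30), with GDF15 (88.9 and 75.9 to 24.3 and 31.2 CPM) and TP53I11 (85.4 and 68.5 to 31.1 and 34.0 CPM) the lowest of those named. PER2, a repressor of the circadian clock, rose from 7.17 and 7.96 to 43.8 and 36.2 CPM (log2 2.13 ± 0.28, limma adjusted p = 5e-09).

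Chromatin genes were called in part. Of FACT and other histone chaperones 32.1% were higher and of histones 36.8% lower, beside 14.3% and 12.5% of all tested genes. SUPT16H, the large subunit of the histone chaperone FACT, was at 82.5 and 100.4 CPM in Zab and 107 and 82.9 in Zab+MYC, with overlapping groups (log2 0.05, limma adjusted p = 0.85). SSRP1, its partner, was at 193 and 184 CPM and 238 and 240.3 CPM (log2 0.34, limma adjusted p = 0.0096). This call ended with DESeq2 (adjusted p = 0.18) and without either Zab+MYC library or Zab replicate 2 (adjusted p up to 0.071). Of 28 genes of FACT and other histone chaperones 9 were higher and 1 lower, with SET at 241 and 239 CPM in Zab and 406 and 433 in Zab+MYC. Core and variant histones had 1 of 19 higher and 7 lower, or 4 lower without Zab+MYC replicate 2, and their median, -0.06, turned to 0.10 on the deposited scale. The linker histone H1-2 fell from 776 and 783 to 474 and 429.5 CPM (log2 -0.79, limma adjusted p = 1.1e-15). Of 10 topoisomerases 1 was called, TOP1MT, the mitochondrial enzyme, at log2 0.86.

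Matrix, adhesion and lysosome genes were lowered. Of 17 tested collagens (29 listed) 12 (70.6%) fell and 0 rose, 8 of them at least 2-fold, with a median of -0.88. COL1A1, the main chain of type I collagen, stood at 827 and 776 CPM in Zab and 219.5 and 231 in Zab+MYC (log2 -1.82 ± 0.08, limma adjusted p = 6.6e-31). COL3A1 fell from 55.2 and 42.8 to 4.38 and 2.84 CPM (log2 -3.19 ± 0.32, limma adjusted p = 8.1e-13) and COL5A1 from 86.8 and 71.0 to 9.25 and 6.38 CPM (log2 -3.05 ± 0.28, limma adjusted p = 2e-14). In each of these the lowest Zab value was more than 3 times the highest Zab+MYC value. Other matrix proteins, crosslinkers and proteases had 19 of 35 lower and 1 higher: MMP2, a gelatinase, fell from 161 and 146 to 67.6 and 48.9 CPM, and TIMP3, an inhibitor of such proteases, was the 1 that rose, from 14.4 and 15.9 to 47.2 and 61.7 CPM (log2 1.71 ± 0.25, limma adjusted p = 6e-08). Integrins and laminins had 10 of 19 lower and 0 higher, with ITGA3 going from 410.3 and 453 to 173 and 194 CPM. Of 41 lysosomal genes 20 (48.8%) fell and 0 rose (median -0.54), among them NPC2, which hands cholesterol on from the lysosome (776 and 776 to 375 and 347 CPM, log2 -1.10 ± 0.07, limma adjusted p = 2.7e-21). The lysosomal count was 12 and 13 without Zab+MYC replicate 2 and 1, 13 without Zab replicate 2, and 7 with DESeq2.

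Genes of TGF-beta and IGF signalling and immediate early genes fell more often than they rose. The shares lower were 27.8%, 50% and 32.3% in that order, beside 12.5% of all tested genes. The share of immediate early and ERK feedback genes called higher, 12.9%, was near the 14.3% of all tested genes. TGF-beta, ID and CCN genes had 10 of 36 lower and 1 higher, and PMEPA1, which is raised by TGF-beta and dampens its signal, fell from 404 and 441 to 166 and 190.0 CPM (log2 -1.24, limma adjusted p = 7e-19). In IGF signalling 4 of 8 fell: IGFBP5, a binding protein of insulin-like growth factors, went from 137 and 107 to 28.7 and 14.2 CPM (log2 -2.47 ± 0.19, limma adjusted p = 4.3e-18), and the receptor IGF2R fell by 1.21 on the log2 scale. Immediate early and ERK feedback genes had 10 of 31 lower and 4 higher. PHLDA1 fell from 83.2 and 73.4 to 16.5 and 25.5 CPM and ZFP36L1, which destabilizes mRNA, from 425 and 411 to 174 and 186 CPM, while DUSP2, a phosphatase of MAP kinases, rose from 12.9 and 30.6 to 85.6 and 80.8 CPM (log2 1.95 ± 0.20, limma adjusted p = 1.6e-12). The number higher in that list was 1 without Zab+MYC replicate 1. Contractile and cytoskeletal genes had 5 of 30 (16.7%) higher and 5 lower, near the 14.3% and 12.5% of all genes, with actin ACTG1 going from 665 and 709 to 1344 and 1296 CPM and filamin FLNA from 538 and 572 to 328 and 372 CPM. Their median of -0.09 turned to 0.06 on the deposited scale, and 3 were higher without Zab+MYC replicate 2.

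The interferon-stimulated genes fell furthest. Of 71 listed, 43 were abundant enough to test; 39 of these (90.7%) fell, 32 of them at least 2-fold, and 0 rose, beside 12.5% of all genes called lower and 4.67% called at least 2-fold lower. Their median log2 change was -1.69. Genes abundant in the Zab libraries alone also passed the filter, so these shares and this median are partly set by it. ISG15, a ubiquitin-like modifier, stood at 845 and 906 CPM in Zab and at 50.1 and 38.3 CPM in Zab+MYC, 19.1-fold lower (log2 -4.26 ± 0.18 SE, limma adjusted p = 7e-33). IFI6 went from 118.4 and 118.1 CPM to 1.46 and 4.25 CPM (log2 -4.69 ± 0.40, limma adjusted p = 7.5e-16). IFI44L went from 67.4 and 60.6 CPM to 2.92 and 2.84 CPM (log2 -3.76 ± 0.43). HELZ2, a helicase that acts as a coactivator, went from 166 and 149 CPM to 10.2 and 17.0 CPM (log2 -3.39 ± 0.27, limma adjusted p = 1.7e-17). In each of these genes the groups do not overlap, as in 60.8% of all tested genes. Genes named from the lists were chosen for this. In WT ISG15 was at 55.5 and 54.0 CPM, IFI6 at 3.79 and 6.36 and IFI44L at 1.26 and 2.12.

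The oligoadenylate synthetases, which sense double-stranded RNA and activate RNase L, came to or near 0 tags. OAS2 had 50 tags in the 2 Zab libraries and 0 in the 2 Zab+MYC libraries, at least 19.1-fold lower against a floor of 3 tags over the group, which is 1.73 CPM. OAS1 had 55.5 tags against 2, a ratio of 31.8 with an exact 95% counting interval of 8.47 to 271. OASL had 31 tags against 1 (35.5, interval 5.91 to 1450) and IFIT3 37 against 1 (42.3, interval 7.14 to 1720). OAS3, with more tags, fell from 73.2 and 70.4 to 4.38 and 2.84 CPM (log2 -3.73 ± 0.40, limma adjusted p = 6.1e-12). IFIT1, which binds viral RNA caps, stood at 75.3 and 75.3 CPM in Zab and at 0 and 7.80 CPM in Zab+MYC. Its log2 change of -4.13 ran from -5.26 without Zab+MYC replicate 2 to -2.97 without Zab+MYC replicate 1, and its adjusted p with DESeq2 was 0.056. The same 2 libraries moved OAS1 between -4.26 and -2.99. Members of the IFIT, IFITM and OAS families resemble each other, so reads shared among them are uncertain.

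**Figure D3:**
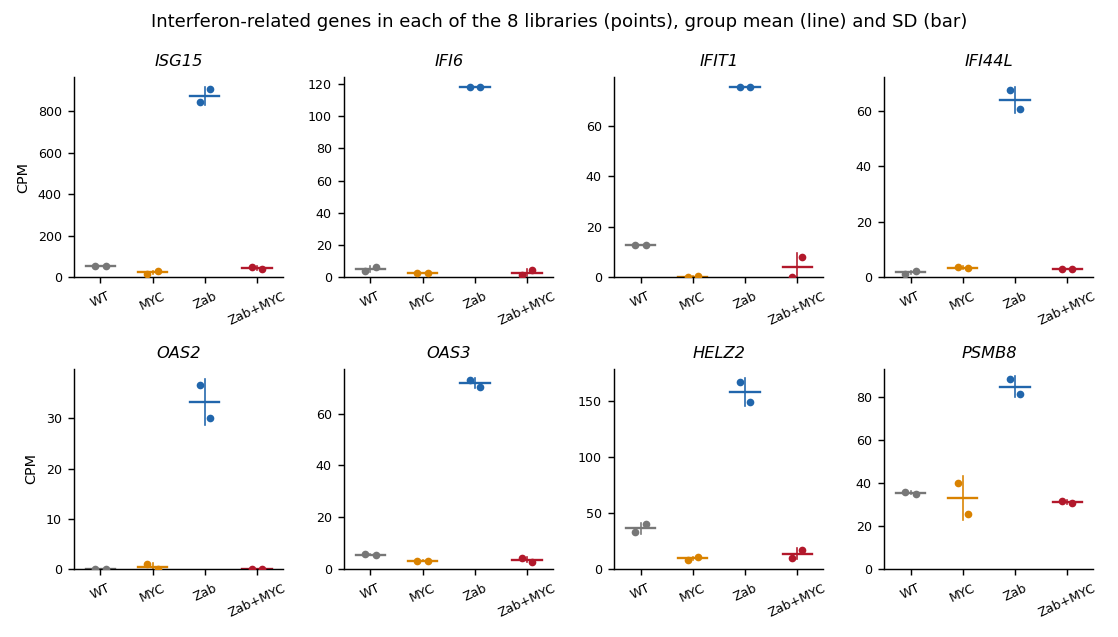
Level in CPM (vertical axes, linear from 0) of 8 interferon-related genes in the 8 libraries, 2 points a group, with the group mean as a line and the SD as a bar. Both Zab libraries stand above all 6 others in each of the 8 panels. In some panels, HELZ2 and ISG15 among them, the Zab+MYC points also lie below those of WT.

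Summed over all 71 listed genes, the interferon-stimulated level was 5726 to 5753 CPM in Zab and 1766 to 1822 CPM in Zab+MYC, beside 2058 to 2098 CPM in WT and 1567 to 1568 CPM in MYC. That sum takes in all listed genes, tested or not. In 39 of the 43 tested genes both Zab libraries stood above both WT libraries. The filter lets in genes abundant in Zab alone, which favours this order. The shares of all tested genes in this order, and in those given next, were not counted. In Zab+MYC, 7 of the 43 stood above both WT libraries in both replicates and 20 below both. ADAR, which is not in this list, was 5.84-fold lower in the same libraries, which leaves the part of MYC and that of a lower Zab signal not told apart. The list had 21 genes called lower with DESeq2, 32 to 43 when any 1 library was left out, and 34 on the deposited scale. IFNB1 and IFNL1, the interferons themselves, had 0 tags in all 8 libraries, which allows up to 1.98 CPM in Zab and 1.73 CPM in Zab+MYC.

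Genes of upstream signalling and antigen presentation fell in part. Of all tested genes 14.3% were called higher and 12.5% lower. Near these were the shares higher of the receptor, STAT and IRF list (11.1%) and of the RNA-sensing list (15%). The share lower of the NF-kB list (11.1%) was near them too. Of 18 interferon receptors, STAT and IRF genes 5 fell and 2 rose, or 3 fell without Zab+MYC replicate 1. Of 17 genes of MHC class I and antigen processing 10 (58.8%) fell and 1 rose (median -0.61). PSMB8, a subunit of the immunoproteasome, fell from 88.2 and 81.4 to 31.6 and 30.5 CPM (log2 -1.39, limma adjusted p = 1.4e-06), and B2M, the light chain of MHC class I, from 248 and 265 to 154 and 112 CPM (log2 -0.96). Of 20 genes that sense or bind double-stranded or Z-form RNA, 9 fell, 8 of them at least 2-fold and ADAR one of these, and 3 rose, or 0 without Zab+MYC replicate 2. Of 18 genes of NF-kB signalling and cytokines 4 rose and 2 fell, or 2 rose without Zab+MYC replicate 2, and 8 of its 41 listed genes had 0 tags in the 4 libraries.

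The genes with the highest fold changes were mostly scarce in Zab. CAMKV, a kinase-like protein of neurons, had 1 tag in Zab and 57 in Zab+MYC, a ratio of 49.8 (exact 95% counting interval 8.59 to 2000). SPRR2D, a protein of the cornified skin layer, had 1 tag against 34 (29.7, interval 4.98 to 1210), and EPHA8, an ephrin receptor, 2 against 39 (17.0, interval 4.41 to 146). GABRA5, a subunit of the GABA receptor, went from 3.59 and 3.06 to 35.5 and 43.9 CPM (log2 2.97, limma adjusted p = 8.5e-11). KLHL21, an adaptor of a ubiquitin ligase in mitosis, went from 7.17 and 8.57 to 52.1 and 39.0 CPM (log2 2.26). At the other end, the secreted protease HTRA1 fell from 36.5 tags to 1, a ratio of 41.8 (interval 6.94 to 1670). These intervals cover counting error only: without molecular identifiers, reads cannot be taken as separate molecules.

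Whether the change with overexpressed MYC differed with Zab was tested by setting it against that between MYC and WT, which shares no library with it. In MYC against WT 27.8% of genes were called higher and 30.4% lower, and the spread of log2 changes over genes was wider, with an SD of 1.06 against 0.582 with Zab. Of the 1385 genes higher in Zab+MYC, 1122 (81.0%) were also higher in MYC against WT and 37 were lower, and of the 1207 that fell, 953 (79.0%) fell there too and 38 rose. Seen from the other side, these are 41.7% and 32.4% of the genes called higher and lower without Zab. Across the 9673 genes, which are not independent replicates, the 2 sets of log2 changes had Pearson's r of 0.668 and Spearman's rho of 0.673. The difference of the 2 changes was called in 2695 genes: 1408 (14.6%) had a more positive change with Zab and 1287 (13.3%) a more negative one. Among genes that rose with Zab, the change was smaller than without it in 489 and more positive in 113, of which 37 fell without Zab. Among those that fell, the fall was smaller in 377 and the change more negative in 110, of which 38 rose without Zab. MYC reached a lower level in the cells with Zab, beside the different starting point given above, and its part in these differences was not tested.

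**Figure D4:**
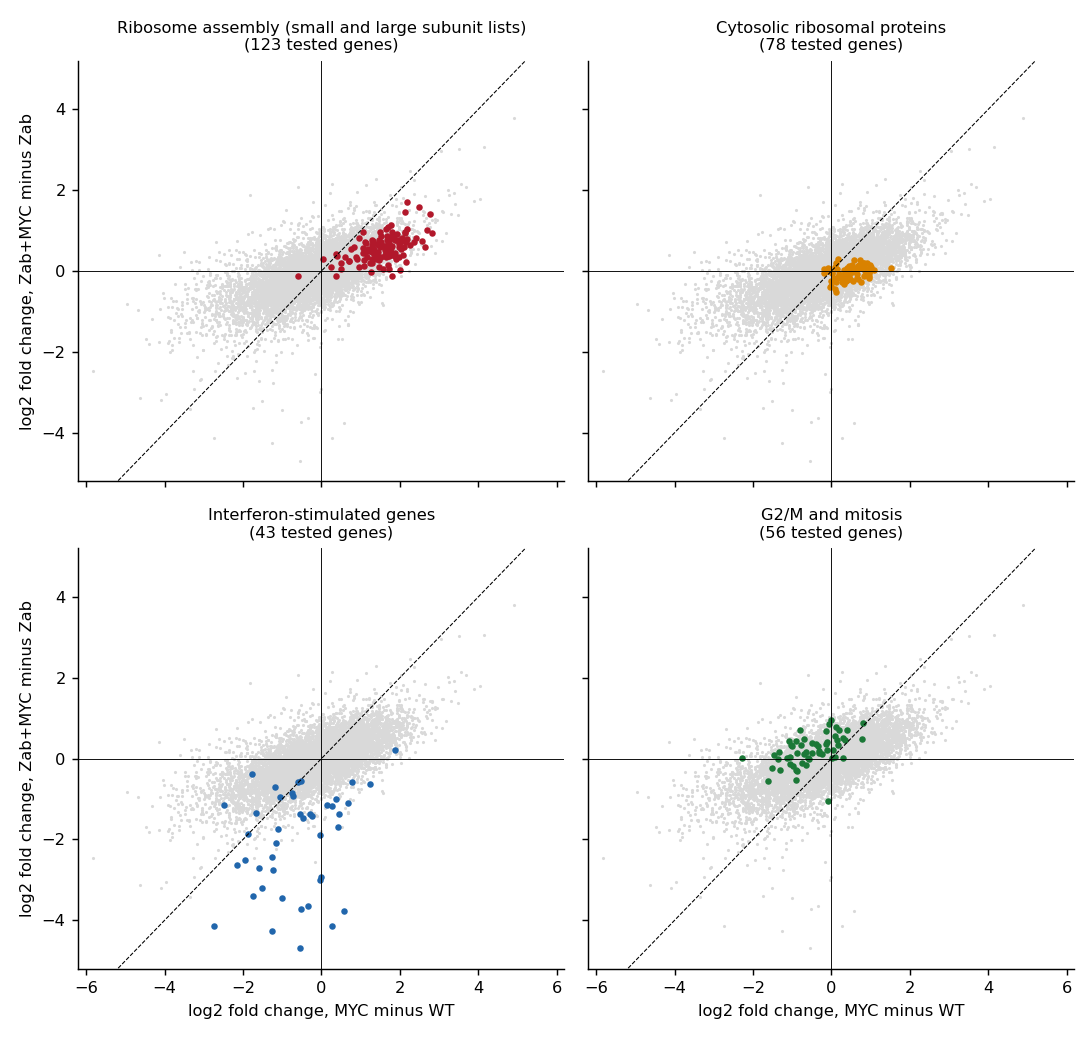
Log2 fold change in MYC against WT (horizontal axis) and in Zab+MYC against Zab (vertical axis) for all 9673 genes in grey and for 1 gene group per panel in colour, with equal changes on the dashed line. Ribosome assembly genes lie right of 0 and below the line, ribosomal proteins spread along the horizontal axis, interferon-stimulated genes reach down to -4.69, and most G2/M genes lie above the line.

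Growth genes made the smaller step with Zab. Of the 61 small-subunit and 62 large-subunit assembly genes 49 each had a more negative change with Zab, and their medians of 0.58 and 0.56 stood beside 1.63 and 1.67 without Zab. Of the MYC core targets 39 of 58 had a more negative change and 3 a more positive one. The gap was widest in count for the cytosolic ribosomal proteins, where 67 of 78 had a more negative change with Zab and 65 of 78 had risen in MYC against WT. Their summed level was 106900 to 110000 CPM in WT, 147700 to 148800 in MYC, 136900 to 137200 in Zab and 133700 to 135400 in Zab+MYC, so both Zab libraries stood above both WT libraries. SRM, at log2 0.37 with Zab, was at 2.12 without it (difference -1.75, limma adjusted p = 3e-37).

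Cell cycle, histone and matrix genes differed the other way. None of the 56 G2/M genes had a more negative change with Zab and 34 had a more positive one: their median was -0.54 in MYC against WT, where 31 fell and 6 rose, and 0.18 in Zab+MYC against Zab, where 19 rose. In 51 of the 56 both Zab libraries had stood below both WT libraries. The share of all tested genes in that order was not counted. For AURKA the change was 0.86 with Zab and -0.05 without (difference 0.91, limma adjusted p = 0.0019), and for BUB1B 0.95 and 0.00 (difference 0.95, limma adjusted p = 0.005). Histones had 13 of 19 with a more positive change and 1 with a more negative one, and H1-2 fell by 0.79 with Zab and by 2.58 without. Of the collagens 9 of 17, of the other matrix genes 23 of 35 and of the lysosomal genes 14 of 41 had a more positive change with Zab, which for these falling lists is a smaller fall: COL1A1 changed by -1.82 with Zab and -3.28 without (difference 1.46, limma adjusted p = 1.1e-17). For the interferon-stimulated genes 22 of 43 had a more negative change with Zab and 1 a more positive one. Their median was -0.55 in MYC against WT, where 22 fell and 6 rose. The filter that set these 43 genes lets in genes abundant in Zab alone.

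**Figure D5:**
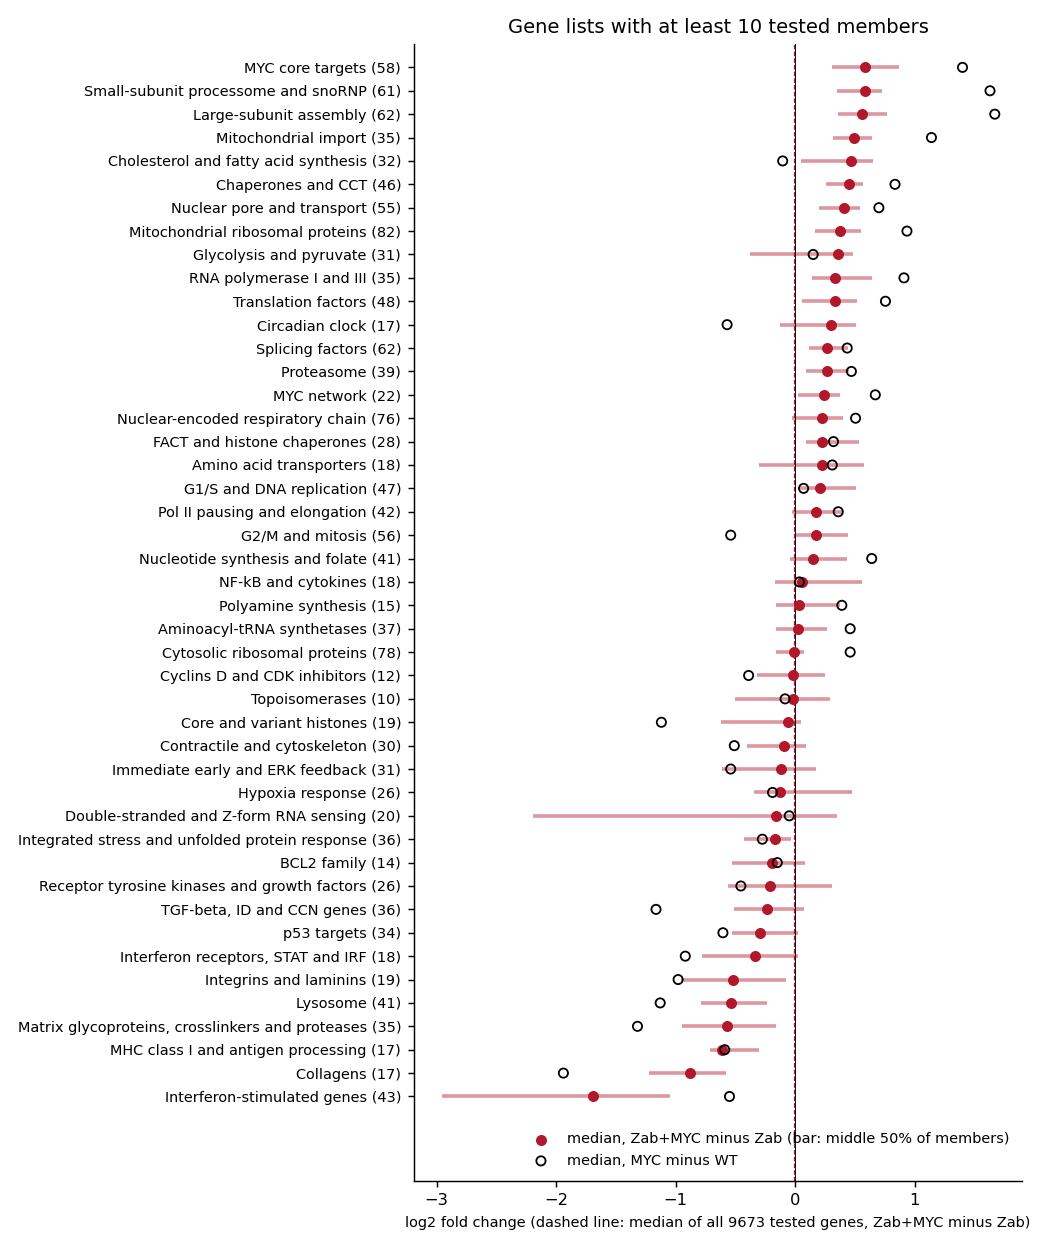
Median log2 fold change (horizontal axis) over the tested members of each gene list with at least 10 of them (number in brackets), filled red for Zab+MYC against Zab with a bar for the middle 50% of members, open black for MYC against WT. Interferon-stimulated genes are lowest at -1.69, MYC core targets at the other end at 0.58, and the red points of the ribosome lists lie left of the black ones.

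In 75 genes the change was called in both comparisons, in opposite directions, with the difference called as well. Higher with Zab and lower without were 37, among them TNNT2, cardiac troponin T, which went from 11.5 and 7.34 CPM in Zab to 37.5 and 40.4 CPM in Zab+MYC (log2 1.87, limma adjusted p = 0.00016) and by -1.82 without Zab (difference 3.69, limma adjusted p = 1.9e-07). Lower with Zab and higher without were 38, among them CHAC1, at -0.79 with Zab and 1.54 without (difference -2.33, limma adjusted p = 1.9e-12). Further genes of that set, chosen after their values were seen, are the interferon-induced IFITM3 (log2 -1.69 with Zab and 0.42 without) and the ribosomal protein RPL23 (-0.16 and 0.96). DUSP2 rose more with Zab than without (difference 1.05, limma adjusted p = 0.0032). TIMP3 rose with Zab and was at -0.21 without (limma adjusted p = 0.47), a difference of 1.92 (limma adjusted p = 1e-05).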

How the data were processed

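RNA was sequenced from 8 libraries of U2OS cells, 2 in each of 4 groups, grouped by the genotype in the labels. The authors deposited 1 exon signal per coding gene and library, made with HOMER per the file headers (hg19), and the submitters' processing notes name Trim Galore 0.6.6, STAR and HOMER 4.11.1, and the builds hg19 and dm6 without a role. The deposited signal is scaled by a factor whose origin was not given in the sources used here. A folder name in the file headers mentions a spike-in, and whether the factor was taken from one was not stated. All values were whole multiples of a per-library step within a tolerance of 0.1 step, and a read (tag) was taken as 2 of the smallest steps, an assumption that sets the tag numbers and the comparison with sampling noise. Genes can thus hold an odd number of steps, which was rounded for edgeR and DESeq2. HOMER reported 1 transcript per gene, the same in the 4 libraries for 53.9% of genes.

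The recovered tags were scaled with TMM to CPM, tags per 1000000 exon tags. Genes passing edgeR's filterByExpr (9673 of 19414) were tested with limma 3.58.1 (trend) on log2(CPM + 2) over all 8 libraries, with 4 residual degrees of freedom and Benjamini-Hochberg adjustment over all tested genes. A gene abundant only in the libraries of a given group passes the filter. The contrasts were Zab+MYC against Zab, MYC against WT and their difference. edgeR 4.0.16 (quasi-likelihood) on the recovered tags and DESeq2 1.42.0 were alternatives, beside other scalings, pseudocounts and filters, thinning and leaving out each library. Exon tags per library ran from 686992 to 1326166, and counting error limits genes with few tags. The fits were tested on simulated data.

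Genes named in the text are MYC, ADAR, SSRP1 and SUPT16H; per list up to 4 called genes with the largest change, a mean of at least 10 CPM over the 4 libraries and groups that do not overlap, plus up to 2 called the other way; the 12 highest and 12 lowest changes over all called genes with at least 20 tags in the higher group; and the 8 highest and 8 lowest differences between the changes with and without Zab among genes called for it with at least 10 CPM. Some genes that this rule picks are not reported here. The members and lists were chosen with earlier results of these data known.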

Additional observations from a re-analysis of the deposited data

Results flagged for a closer look

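The change between cells with and without overexpressed MYC differed with Zab in 2695 of the genes tested (limma, adjusted p under 0.05 for the difference of the log2 changes). Genes named by rule that are among them follow, and the value beside each name below is its log2 change in Zab+MYC against Zab less its log2 change in MYC against WT. The 2 changes share no library. MYC itself and ADAR differed as well, by -2.16 and -2.39, and the part of their levels in the other differences was not tested.

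A more negative value marks interferon-related genes, which stood high in Zab: IFI44L (-4.33), OAS2 (-4.41), IFI6 (-4.15), OAS1 (-3.29), OAS3 (-3.21), ISG15 (-3.01), IFITM1 (-2.96), IFIT3 (-2.44), HELZ2 (-1.63) and PSMB8 (-1.26). Growth genes also had a more negative value, and those named next rose in both comparisons, less with Zab. For ribosome assembly and RNA polymerases these are NCL (-1.50), NOLC1 (-1.68), LYAR (-1.35), RRP1B (-1.16), POLR3G (-1.74), CD3EAP (-1.36) and POLR2F (-1.09). For metabolism, transport and mitochondria they are SRM (-1.75), SLC7A5 (-1.46), SLC16A1 (-1.18), SLCO5A1 (-1.60), TIMM50 (-1.06) and TOMM40 (-1.02). For folding, translation and stress they are DNAJC2 (-1.38), FKBP4 (-1.33), EIF3J (-1.25) and ATF5 (-1.36). CHAC1 (-2.33) fell with Zab and rose without. Others on this side are BID (-1.16), CNOT4 (-2.43), DUSP7 (-1.36) and SH2D5 (-2.46). CNOT4 and SH2D5 were not called in Zab+MYC against Zab.

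A more positive value marks matrix and growth factor genes: COL1A1 (1.46), HAPLN1 (2.59), LOXL4 (4.15), LTBP2 (1.40), MMP2 (1.41), OLFML3 (3.73), PDGFRB (4.56), EPHB2 (1.36), IGFBP5 (3.37), IGFBP6 (1.12), TIMP3 (1.92) and PMEPA1 (1.02). Histones on this side are H1-2 (1.79), H2BC12 (1.04), H2BC21 (1.27) and H2BC5 (1.03). Contractile and stress genes are TNNT2 (3.69), MYL9 (1.76) and CRYAB (1.03). Targets of p53 and regulators of the cell cycle are TP53I11 (1.57), TP53I3 (2.33), CCNG2 (3.70) and NUSAP1 (1.05). The rest are BCL3 (1.51), DUSP2 (1.05), PHLDA1 (1.97), MXD4 (1.08), EDN2 (3.99), EIF4EBP2 (1.86), IMPA2 (3.42), STRA6 (3.51), SLC38A10 (1.31), TAPBP (1.12) and VARS2 (1.13). A positive value can be a smaller fall with Zab, as for COL1A1, or a rise with Zab and a fall without, as for TNNT2. LOXL4, OLFML3, PDGFRB, CCNG2, EDN2, IMPA2 and STRA6 were not called in Zab+MYC against Zab. Of these, the MYC libraries held 0 tags of PDGFRB and EDN2, 1 of OLFML3 and STRA6, 2 of LOXL4 and 3 of CCNG2. The values of those 6 rest on a fall to few tags without Zab.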

How the results depend on the processing

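Of 221 named gene changes, 142 of the 210 called ones kept their call under all alternatives, and 155 did so when each library was left out in turn. The call ended most often with DESeq2 (61 genes) and without Zab+MYC replicate 2 (39 genes). HSPB1 turned from -0.16 to 0.001 on the deposited scale, and the scaling itself moves all genes there. The deposited scale gave 2159 genes higher, 783 lower, and 410 higher and 312 lower at least 2-fold, which turns the excess of large falls (452 against 244) into one of large rises. DESeq2 called 511 higher, 414 lower, 116 and 206 at least 2-fold higher and lower, and 1141 differences between the changes with and without Zab. Genes counted on the same transcript in the 4 libraries, fewer genes tested, gave 868 higher, 724 lower, 129 and 244 at least 2-fold, 1658 differences and 3165 calls in MYC against WT. Leaving out 1 library gave 930 to 1464 higher, 782 to 1197 lower, 208 to 351 and 393 to 453 at least 2-fold, 2129 to 2500 differences and 4796 to 5980 calls in MYC against WT. The lowest numbers higher and lower were without Zab+MYC replicate 2.

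Same-numbered libraries did not deviate together (correlations of -0.0226 to 0.0143). As the deviations within a group were no more than sampling noise, this cannot show whether the numbers pair the libraries. With the replicate number as a block, 1420 genes were higher and 1237 lower, and 1 named call ended. Summing the libraries of a group or comparing single libraries, both chosen after seeing the data, gave values with no test. With 2 libraries a group that differ by no more than sampling noise, the spread between cultures is not measured, and genes of a few tags are limited by counting error.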

Other observations

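Gene groups not described above are given here with their counts in Zab+MYC against Zab, beside 14.3% of all tested genes higher and 12.5% lower. Of 26 hypoxia-response genes 7 were higher and 2 lower, and their median of -0.13 turned to 0.01 on the deposited scale. AK4, a mitochondrial adenylate kinase, rose from 35.9 and 23.9 to 94.4 and 79.4 CPM (limma adjusted p = 6.4e-09), and CA12, a carbonic anhydrase at the cell surface, from 26.5 and 21.4 to 56.0 and 59.5 CPM (log2 1.21, limma adjusted p = 2.4e-07). Of 26 receptor tyrosine kinases and growth factors 2 were higher and 6 lower, or 2 lower without Zab+MYC replicate 1. AXL fell from 173 and 184 to 100.2 and 97.1 CPM (log2 -0.84, limma adjusted p = 2.6e-05).

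Of 42 genes of RNA polymerase II pausing and elongation 10 were higher and 2 lower, or 6 higher without Zab+MYC replicate 2. POLR2F, a subunit shared by the RNA polymerases, rose from 349 and 329 to 539 and 579.8 CPM (log2 0.72, limma adjusted p = 1.4e-11). Of 14 genes of the BCL2 family 1 (7.14%) was higher and 2 (14.3%) lower, near or under the shares of all genes, or 0 higher without MYC replicate 1 and 1 lower without Zab replicate 2, with the survival gene BCL2L1 falling from 288 and 279.7 to 198 and 196 CPM (log2 -0.52, limma adjusted p = 0.00065). Of 17 circadian clock genes 5 were higher and 2 lower, or 3 higher without Zab replicate 1 and 0 lower without Zab+MYC replicate 1. DESeq2 called 1 higher and 0 lower.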
